A study of Mus musculus with 6 samples.

Results

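This report describes 38 genes of fatty acid oxidation and of the peroxisome in mouse C3H10T1/2 cells after knockdown of Ybx1. They are the rows of the deposited expression table that carry the listed gene symbols, and all 38 were found among its 16423 symbols. They were treated as 19 genes of mitochondrial oxidation and 19 genes of the peroxisome. The C3H10T1/2 line consists of mesenchymal stem cells of the mouse, labelled wild type here, and the study calls the differentiated cells brown adipocytes. The cells of every library were made into fat cells with a cocktail of 3-isobutyl-1-methylxanthine, dexamethasone, insulin, triiodothyronine, indomethacin and rosiglitazone, and then kept in insulin, triiodothyronine and rosiglitazone. Rosiglitazone is an activator of PPARγ, a nuclear receptor of the fat cell program, and was given to both groups. The activity of the receptor was not measured here. On day 4 the cells received a control siRNA (siNC, 3 libraries) or siRNAs against Ybx1 (siYBX1, 3 libraries), and RNA was taken 48 h later for sequencing. The YBX1 protein belongs to the Y-box family, which binds nucleic acids through a cold-shock domain. The labels do not name the siRNA sequences, and they leave unstated if each replicate was its own culture, so p-values refer to the spread among libraries, part or all of which may be technical.

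Mitochondrial beta-oxidation breaks acyl-CoA down to acetyl-CoA in repeated rounds of oxidation, hydration, oxidation and thiolysis, after the carnitine shuttle has brought the acyl group across the mitochondrial membranes. Its electrons enter the respiratory chain through NADH and the electron transfer flavoprotein, and in brown fat this pathway supplies the fuel that is burned for heat. Peroxisomes shorten very long and branched chains with their own set of enzymes, whose oxidases make hydrogen peroxide, and they import those enzymes folded through receptors and membrane proteins called peroxins.

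The values are FPKM, the number of fragments per kilobase of gene, scaled to the size of the library. The libraries held 31957411 to 35410308 reads, a number recovered from the steps of the FPKM values, so that for a 2 kb gene each single read adds 0.0141 to 0.0156 FPKM. Ybx1 itself was at 135, 134 and 129.6 FPKM in siNC replicates 1 to 3 and at 59.3, 67.9 and 61.3 FPKM in siYBX1 replicates 1 to 3, so that 47.3% of the control level was left. The log2 fold change was -1.07 with an SE of 0.06 (limma, adjusted p = 3.98e-06). Genes that mark fat cells were abundant, and 10 of 11 reached the minimum for testing. The exception was Cebpa, at 0.226 to 0.626 FPKM. Of 9 brown fat genes 3 were tested and none passed (limma; 0 with an unadjusted p below 0.05 and 0 by limma's voom), while Prdm16, Zic1 and Elovl3 were at or near 0 in all libraries. The 3 tested, Cidea, Cox8b and Cox7a1, were at 16.4 to 174 FPKM.

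Among all 10341 genes tested 20.6% passed the threshold, an adjusted p below 0.05 in limma, with 9.54% higher and 11.1% lower in siYBX1. Of these calls 46.3% were higher, and 29.6% with values rescaled to TPM. Of the 38 genes described here 37 reached the minimum of a mean of 1 FPKM. None was called higher and 3 were called lower, which is 8.11% of the 37. The 3 were Echs1 in mitochondrial oxidation, and Crat and Pex11a in the peroxisome list. At an unadjusted p below 0.05 in limma there were 5 higher and 5 lower, which is 27% of the 37, against 36.3% of all genes tested. By limma's voom on recovered reads 2 were called higher and 2 lower, beside 1065 higher and 1398 lower among 12177 genes. The groups of 3 libraries did not overlap for 9 of the 37 genes (24.3%), against 40.9% of all genes tested. The median log2 fold change was 0.0202 for the 19 mitochondrial genes and -0.00112 for the 18 tested peroxisome genes, beside -0.0108 for all genes. Median absolute log2 fold changes were 0.101 and 0.0758, beside 0.112 for all genes. For the 34 genes that did not pass, the 95% confidence intervals of the log2 fold change reached from -0.47 at the lowest to 0.43 at the highest. Changes within such bounds are therefore not shown to be absent.

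**Figure D1:**
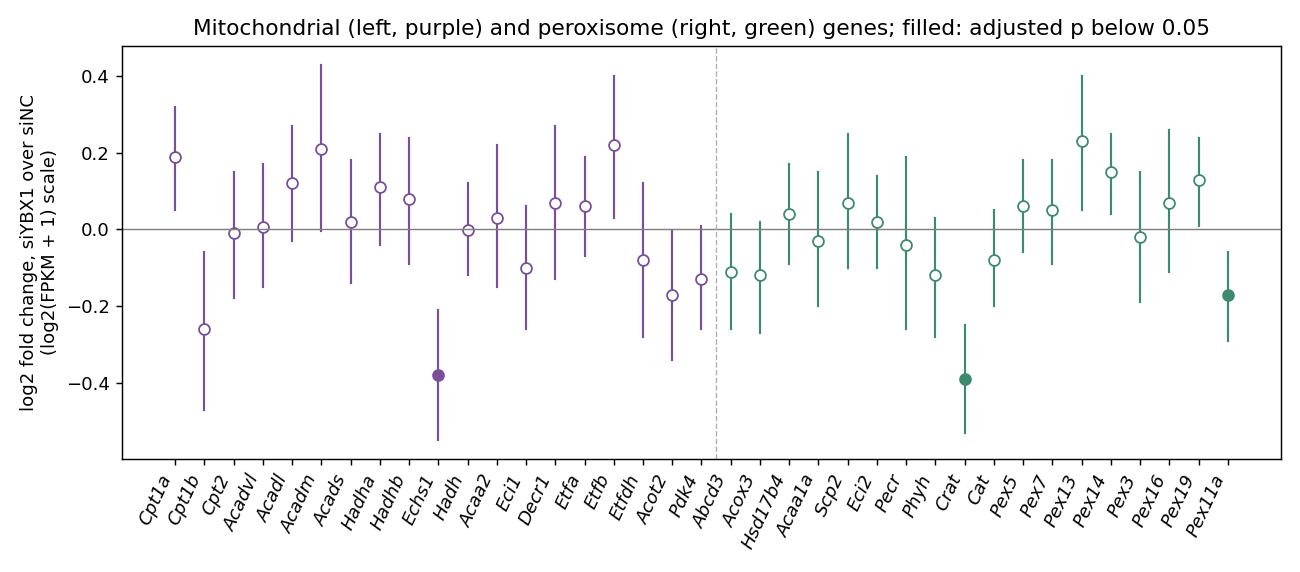
Log2 fold change of siYBX1 over siNC, on the log2(FPKM + 1) scale, for the 37 tested genes, 19 of mitochondrial oxidation (purple) and 18 of the peroxisome (green). Bars are 95% confidence intervals from limma. Filled points passed an adjusted p below 0.05. Echs1, Crat and Pex11a lie below 0, and the other intervals lie between -0.47 and 0.43.

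The mitochondrial genes were mostly abundant. Of the 19, 15 were in the top 10% of all genes in the table by mean FPKM and 7 were at 100 FPKM or more in siNC. The median of the siNC means was 62.2 FPKM, against 10.6 FPKM for all genes tested. Their level ran from 1.92 FPKM for Cpt1b to 254 FPKM for Acadm. The peroxisome genes were less abundant, with a median of 25 FPKM and 3 genes at 100 FPKM or more, namely Crat, Scp2 and Cat. They ran from 0.745 FPKM for Ehhadh to 305 FPKM for Cat.

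The carnitine shuttle moves acyl groups into the mitochondrion. Cpt1a, the liver-type isoform of the gate-keeping acyltransferase of the outer membrane, was at 22.1, 22.6 and 22.7 FPKM in siNC and at 26.6, 23.6 and 27.2 FPKM in siYBX1. Its groups did not overlap, and its log2 fold change of 0.19 (SE 0.06) just missed the threshold (adjusted p = 0.0511, limma). It passed with the length correction (adjusted p = 0.0282) and with voom (adjusted p = 0.0362), and also when siYBX1 replicate 2 was left out (adjusted p = 0.0241). Cpt1b, the muscle-type isoform that is also typical of brown fat, was at 2.32, 1.78 and 1.65 FPKM in siNC and at 1.55, 1.30 and 1.43 FPKM in siYBX1. These groups did not overlap either, with the lowest control close to the highest knockdown library, and the log2 fold change of -0.26 did not pass (adjusted p = 0.0694, limma). It was -0.16 without siNC replicate 1, -0.39 with a pseudocount of 0.1 and -0.42 with voom, and passed in none of these. Cpt1b rested on 133 to 234 reads per library, against 3879 to 4568 for Cpt1a. The ratio of Cpt1a to Cpt1b within a library, a pair chosen after the values were seen, was 9.51, 12.7 and 13.7 in siNC and 17.2, 18.2 and 19.0 in siYBX1. Cpt1a was thus the main isoform by FPKM in all 6 libraries, and the ratio was higher in each siYBX1 library than in each control. Cpt2, the acyltransferase of the inner membrane, was at 52.1 ± 5.48 FPKM (SD, n = 3) in siNC and 51.5 ± 2.76 FPKM (SD, n = 3) in siYBX1, and its groups overlapped.

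The acyl-CoA dehydrogenases carry out the first oxidation, each for a range of chain lengths. None of the 4 passed (limma; 0 with an unadjusted p below 0.05 and 0 by voom). Acadm, for medium chains, was at 216, 275 and 271 FPKM in siNC and at 319.9, 296 and 264 FPKM in siYBX1, so that the highest controls lay above the lowest knockdown library. Its log2 fold change was 0.21 with a 95% confidence interval of -0.005 to 0.43 (adjusted p = 0.146, limma). It was 0.10 without siNC replicate 1, the lowest library, and 0.08 with quantile normalization. Acadl, for long chains, had a log2 fold change of 0.12. Acadvl, for very long chains, and Acads, for short chains, were close to equal in both groups, at 159 ± 12.9 against 159.7 ± 10.8 FPKM and at 47.5 ± 4.85 against 48.1 ± 2.00 FPKM (SD, n = 3 each).

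The hydration, second oxidation and thiolysis steps are shared between the trifunctional protein of the inner membrane, made of the Hadha and Hadhb products, and soluble enzymes of the matrix. Echs1 encodes the soluble short-chain enoyl-CoA hydratase, which also acts in valine breakdown. It was at 102, 124 and 123 FPKM in siNC and at 91.7, 89.9 and 85.3 FPKM in siYBX1. All 3 knockdown libraries lay below all 3 controls, and siNC replicate 1 was the lowest control. The level fell to 76.5% of the control (log2 fold change -0.38, SE 0.08, 95% confidence interval -0.55 to -0.21, adjusted p = 0.00733, limma). It was called without each of the 6 libraries in turn, at log2 fold changes from -0.47 to -0.33. Without the minimum of 1 FPKM, when all 16423 genes entered, its adjusted p was 0.0511. Hadha was at 201, 229 and 229 FPKM in siNC and at 249, 229 and 232 FPKM in siYBX1 (adjusted p = 0.267, limma). Hadhb had a log2 fold change of 0.08, Hadh, the soluble hydroxyacyl-CoA dehydrogenase, one of -0.0006, and Acaa2, the soluble thiolase, one of 0.03. Echs1 was the only one of these 5 genes called. The ratio of Echs1 to Hadha within a library, a pair also chosen after the values were seen, was 0.505, 0.542 and 0.539 in siNC and 0.369, 0.393 and 0.368 in siYBX1. Hadha and Hadhb kept a ratio of 3.55 ± 0.0894 in siNC and 3.63 ± 0.343 in siYBX1 (SD, n = 3 each), with overlapping groups.

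**Figure D2:**
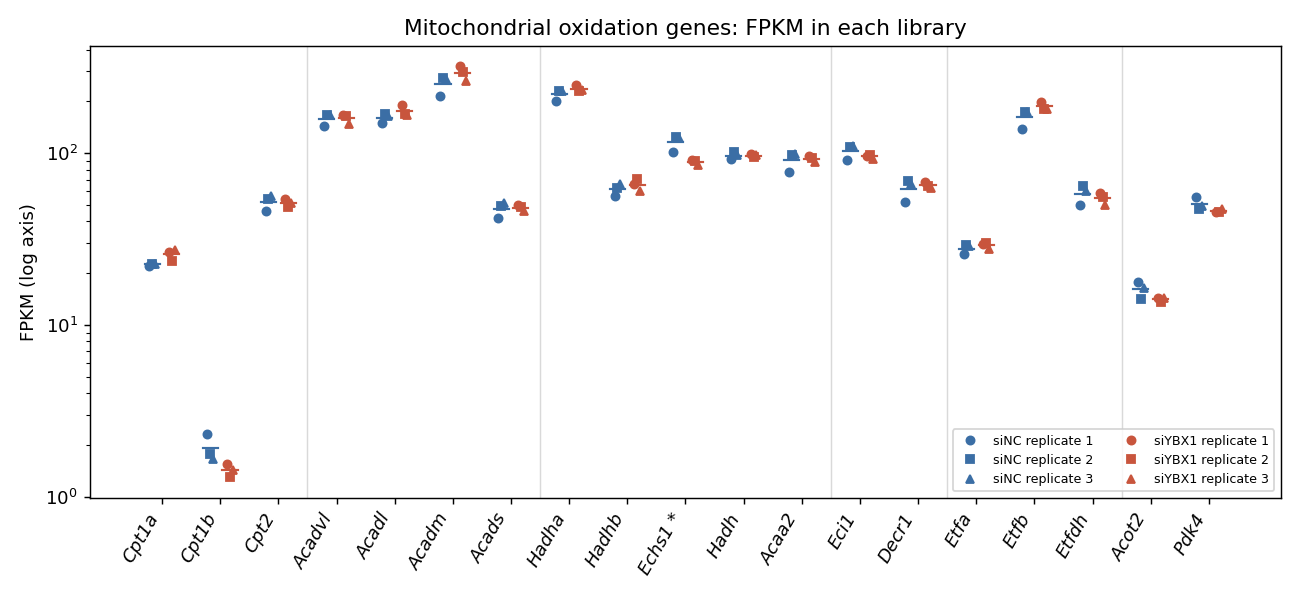
FPKM (log axis) of the 19 mitochondrial oxidation genes in each of the 6 libraries, in blue for siNC and red for siYBX1, with the replicate shown by the symbol and the group mean by a short line. Thin vertical lines separate the roles, and a star marks the gene that passed. Echs1 is at 85.3 to 91.7 FPKM in siYBX1 and at 102 to 124 FPKM in siNC, while most other genes overlap.

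The remaining mitochondrial genes did not pass. Eci1 and Decr1 encode auxiliary enzymes that handle the double bonds of unsaturated chains, and had log2 fold changes of -0.10 and 0.07. Eci1 was called lower without siNC replicate 1 (log2 fold change -0.19, adjusted p = 0.0204, limma) and with the length correction (-0.19, adjusted p = 0.0408). Etfa and Etfb encode the subunits of the electron transfer flavoprotein, and Etfdh the enzyme that passes its electrons to ubiquinone. Etfb was at 139, 173 and 173 FPKM in siNC and at 199, 181 and 181 FPKM in siYBX1. Its groups did not overlap and siNC replicate 1 was the lowest library. The log2 fold change of 0.22 (adjusted p = 0.0940, limma) was 0.11 without that library. Etfa and Etfdh had log2 fold changes of 0.06 and -0.08. Acot2, a thioesterase that frees fatty acids from CoA in the matrix, was at 17.8, 14.1 and 16.3 FPKM in siNC and at 14.4, 13.5 and 14.4 FPKM in siYBX1. It was called lower without siNC replicate 2 (log2 fold change -0.26, adjusted p = 0.0284, limma), its lowest control, had an adjusted p of 0.131 with all libraries, and was at -0.10 without siNC replicate 1. Its reads may be shared with the similar genes of the Acot1 family, and how such reads were counted is not given in the sources used here. Pdk4, which inhibits pyruvate dehydrogenase and so favours fatty acids over glucose as fuel, was at 50.6 ± 4.15 FPKM in siNC and 46.2 ± 1.09 FPKM in siYBX1 (SD, n = 3 each, adjusted p = 0.167, limma).

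Among the peroxisome genes, those of chain shortening stayed below the threshold. Abcd3 encodes the membrane transporter that brings long and branched acyl-CoAs in, and had a log2 fold change of -0.11. Acox3, an acyl-CoA oxidase for branched chains, was at 5.15, 4.65 and 5.17 FPKM in siNC and at 4.36, 4.34 and 4.79 FPKM in siYBX1, with 1 knockdown library above the lowest control (log2 fold change -0.12, adjusted p = 0.207, limma). Hsd17b4 and Ehhadh encode the bifunctional enzymes of the hydration and dehydrogenation steps. Hsd17b4 was at 52.2 ± 3.70 FPKM in siNC and 53.5 ± 1.24 FPKM in siYBX1 (SD, n = 3 each). Ehhadh was the one gene below the minimum, at 0.645 to 0.966 FPKM on 62 to 99 reads, and without the minimum its log2 fold change was 0.08 (adjusted p = 0.609, limma). The thiolase genes Acaa1a and Scp2 had log2 fold changes of -0.03 and 0.07. Acaa1a has a close copy, Acaa1b, at 2.33 to 3.70 FPKM, so its value is uncertain to the extent that reads were shared. Eci2, an enoyl-CoA isomerase found in peroxisomes and mitochondria, was at 36.3 ± 2.01 and 36.7 ± 0.3 FPKM, and Pecr, an enoyl-CoA reductase, at 11.2 ± 1.17 and 10.9 ± 1.62 FPKM (SD, n = 3 each).

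Crat encodes carnitine acetyltransferase, an enzyme of mitochondria and peroxisomes that turns acetyl-CoA into acetylcarnitine, which can leave the organelle. It was at 107, 104 and 115 FPKM in siNC and at 87.4, 84.9 and 76.0 FPKM in siYBX1. The groups were well apart, with siYBX1 replicate 3 the lowest. The level fell to 76.1% of the control (log2 fold change -0.39, SE 0.06, 95% confidence interval -0.53 to -0.25, adjusted p = 0.00288, limma). Crat was the only one of the 37 genes called under all 13 alternatives, with log2 fold changes from -0.46 to -0.33 and adjusted p-values from 0.000531 to 0.0258. Catalase (Cat), which breaks down hydrogen peroxide, was at 310.5, 295 and 309 FPKM in siNC and at 301, 278 and 289 FPKM in siYBX1. It did not pass (adjusted p = 0.353, limma) and was called lower with quantile normalization (log2 fold change -0.21, adjusted p = 0.0318, limma). Phyh, the hydroxylase that starts the alpha-oxidation of phytanic acid, had a log2 fold change of -0.12 (adjusted p = 0.242, limma).

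Of the 8 peroxin genes 1 was called. Pex5 and Pex7 are the import receptors for enzymes with a targeting signal at the carboxyl and the amino end, and had log2 fold changes of 0.06 and 0.05. Pex13 and Pex14 form the docking site of these receptors on the membrane. Pex14 was at 25.3, 25.1 and 24.7 FPKM in siNC and at 28.0, 27.2 and 28.3 FPKM in siYBX1. Pex13 was at 32.6, 38.6 and 39.1 FPKM in siNC and at 46.5, 43.0 and 39.9 FPKM in siYBX1. Neither gene's groups overlapped, and both missed the threshold (log2 fold changes 0.15 and 0.23, adjusted p = 0.0548 and 0.0633, limma). Pex13 passed with voom (adjusted p = 0.0395) and Pex14 without the minimum on FPKM (adjusted p = 0.0410, limma). Without siNC replicate 1, its lowest library, Pex13 had a log2 fold change of 0.14 (adjusted p = 0.13, limma). Pex3, Pex16 and Pex19 insert membrane proteins into the peroxisome. Pex19, the soluble chaperone among them, was at 45.1, 48.3 and 49.0 FPKM in siNC and at 53.2, 51.3 and 51.2 FPKM in siYBX1, again without overlap (adjusted p = 0.104, limma). Pex3 and Pex16 had log2 fold changes of -0.02 and 0.07, and both had siNC replicate 1 as their lowest library.

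Pex11a, whose product elongates peroxisomes before they divide, was called lower. It was at 13.7, 13.2 and 13.8 FPKM in siNC and at 11.7, 12.2 and 11.9 FPKM in siYBX1, with no overlap and a narrow spread in both groups. The level fell to 87.9% of the control, at a log2 fold change of -0.17 with an SE of 0.05 (limma, adjusted p = 0.0402). The call was lost without any 1 of the 6 libraries (adjusted p = 0.0622 to 0.127) and with voom (adjusted p = 0.0697), while the log2 fold change stayed between -0.19 and -0.16 without each library.

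**Figure D3:**
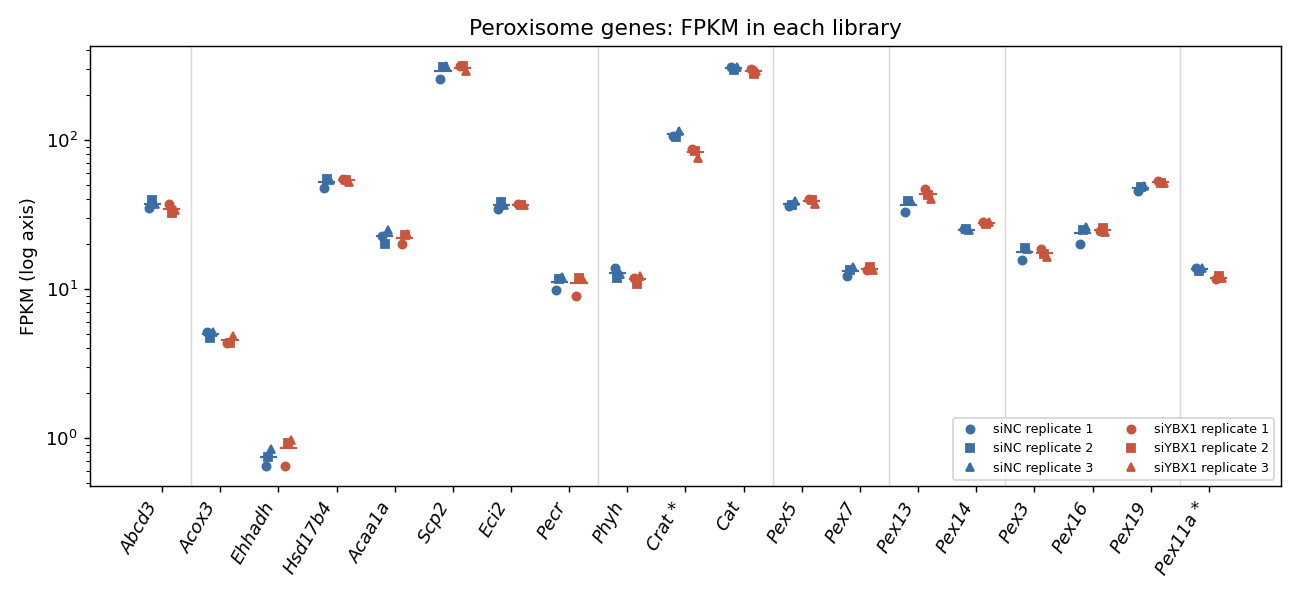
FPKM (log axis) of the 19 peroxisome genes in each of the 6 libraries, drawn as in the plot of the mitochondrial genes. Stars mark Crat, at 104 to 115 FPKM in siNC and 76.0 to 87.4 FPKM in siYBX1, and Pex11a, at 13.2 to 13.8 and 11.7 to 12.2 FPKM.

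Promoter sequences are shown for Echs1 and Pex11a, called lower, and for Cat, not called, to set the letters of their start regions beside the values. Y-box proteins take their name from the Y-box, a promoter element with an inverted CCAAT core. The windows run from 250 bases before to 50 bases after the start of the gene, 5′ to 3′ on the gene's strand, and come from RefSeq on GRCm38.p6, another build than the GRCm39 of the processing notes; no expression value was taken by position. Capitals mark CCAAT, searched on both strands (so also ATTGG), and AGGTCA, the core that nuclear receptors bind, on both strands (so also TGACCT).
Echs1, chr7:140116372-140116671, minus strand: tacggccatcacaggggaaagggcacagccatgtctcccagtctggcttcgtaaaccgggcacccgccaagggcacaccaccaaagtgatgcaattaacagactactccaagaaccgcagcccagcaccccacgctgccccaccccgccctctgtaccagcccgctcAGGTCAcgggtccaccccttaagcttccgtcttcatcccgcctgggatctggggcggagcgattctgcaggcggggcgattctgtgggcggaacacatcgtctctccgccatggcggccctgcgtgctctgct
Pex11a, chr7:79743082-79743381, minus strand: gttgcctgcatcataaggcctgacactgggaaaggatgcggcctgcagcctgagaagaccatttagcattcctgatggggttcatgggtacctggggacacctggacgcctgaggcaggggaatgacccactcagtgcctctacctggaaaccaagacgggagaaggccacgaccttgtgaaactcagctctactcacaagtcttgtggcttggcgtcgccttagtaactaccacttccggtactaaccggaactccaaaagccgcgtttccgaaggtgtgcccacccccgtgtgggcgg
Cat, chr2:103485104-103485403, minus strand: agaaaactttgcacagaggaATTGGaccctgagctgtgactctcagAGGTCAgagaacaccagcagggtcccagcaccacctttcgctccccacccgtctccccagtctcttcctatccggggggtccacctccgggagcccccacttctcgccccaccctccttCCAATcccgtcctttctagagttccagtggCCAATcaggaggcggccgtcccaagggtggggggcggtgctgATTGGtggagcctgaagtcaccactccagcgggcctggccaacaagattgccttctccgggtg

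The Cat window held 4 CCAAT cores and 1 AGGTCA, the Echs1 window no CCAAT and 1 AGGTCA, and the Pex11a window neither. Cat, with Acaa1a, had the most CCAAT cores of the windows of these genes. Other uncalled genes, such as Acadl, Cpt2, Hadha and Pex13, had no CCAAT in theirs. The windows shown are therefore no comparison of called with uncalled genes. Of the 38 genes 32 matched the RefSeq table by symbol, with 36 promoter windows and none for Crat, and CCAAT was in 16 of these (44.4%), against 37.4% of all 32851 promoters. AGGTCA was in 7 (19.4%), against 16.3% of all. The exact direct repeat of AGGTCA with 1 base of any kind between the copies is the consensus site of PPAR with its partner RXR. It was counted on both strands and each time also as AGGTCA. It was in none of the 36 and in 0.0396% of all promoters (13 of 32851). At so low a share a match in 36 windows was unlikely from the start, so its absence says nothing about these genes. A match is only a match of letters, and its absence speaks for this window alone.

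The genes varied together in 1 control library. In siNC replicate 1, 16 of the 19 mitochondrial genes were below both other controls and 15 were the lowest of all 6 libraries, while 38.6% and 24.5% of all tested genes were so. The median difference of the 19 genes from the other controls was -0.21 on the log2 scale. Cpt1b, Acot2 and Pdk4 were the 3 mitochondrial genes that were highest among controls there. Of the 18 tested peroxisome genes 11 were below both other controls and 9 lowest of all, with a median difference of -0.11, and Phyh, Cat and Pex14 were above both. Most fat cell markers went the same way: 8 of 10 tested were below both other controls, with a median difference of -0.29. The other 2, Plin4 and Pnpla2, were above both. The summed FPKM of the fat cell markers was 3019 in siNC replicate 1 and 3350.5 to 3871 in the other 5 libraries. In bulk RNA fewer fat cells and less RNA of a gene per fat cell cannot be told apart. Without siNC replicate 1 the median log2 fold change was -0.062 for the mitochondrial and -0.031 for the peroxisome genes, Echs1 was at -0.47 (adjusted p = 0.000175, limma) and Crat at -0.40 (adjusted p = 0.00244). Acadm moved from 0.21 to 0.10, Acadl from 0.12 to 0.07, Hadha from 0.11 to 0.05, Etfb from 0.22 to 0.11 and Pex13 from 0.23 to 0.14. The summed FPKM of the 19 mitochondrial genes was 1582, 1856 and 1854 in siNC and 1922, 1816 and 1744 in siYBX1, and that of the peroxisome genes 1044, 1107 and 1142 in siNC and 1113, 1079.7 and 1054 in siYBX1. Both sums overlapped between the groups.

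**Figure D4:**
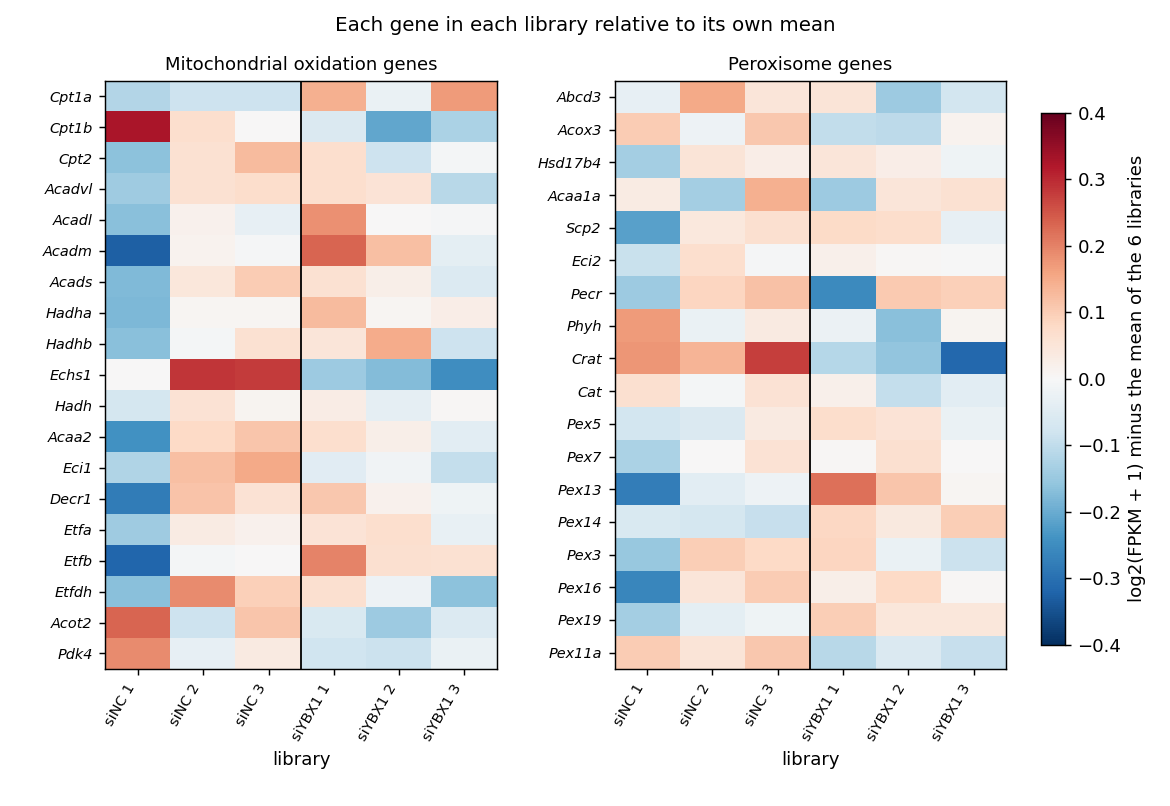
Each tested gene (rows) in each library (columns), as log2(FPKM + 1) minus the mean of its 6 libraries, red above and blue below. The siNC 1 column is blue for most mitochondrial genes, where 15 of 19 are lowest of all libraries, and Crat is red in each siNC and blue in each siYBX1 library.

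Markers of other cells also moved between the groups. Of 8 smooth muscle or myofibroblast genes 6 were tested and 4 rose (Acta2, Tagln, Myl9 and Actg2), with the summed FPKM at 593 to 660.2 in siNC and 2024 to 2123 in siYBX1. The other 2 tested, Smtn and Des, had log2 fold changes of -0.11 and -0.13 and were not called (adjusted p = 0.283 and 0.416, limma). Cnn1 and Myh11, which define mature smooth muscle, were below the minimum. Cnn1 was at 0.0696 to 0.14 FPKM, with overlapping groups. Myh11 was at 0.142, 0.136 and 0.125 FPKM in siNC and at 0.0751, 0.0791 and 0.112 FPKM in siYBX1, without overlap. Of 10 tested fat cell genes 3 fell (Plin4, Pnpla2 and Cfd), with sums of 3019 to 3871 FPKM in siNC and 3350.5 to 3848 FPKM in siYBX1. In the other direction 4 had log2 fold changes above 0 and were not called, namely Fabp4 (0.26), Cd36 (0.22), Lpl (0.09) and Lipe (0.03). Of 6 tested genes of mesenchymal progenitors 2 fell (Eng and Cd44), with sums of 576 to 595 FPKM in siNC and 529 to 553 FPKM in siYBX1. Only Pdgfrl among these 6 had a log2 fold change above 0 (0.23, not called). The only tested gene of skeletal muscle, Acta1, rose. Tnnt3, below the minimum, was at 0.467, 0.375 and 0.412 FPKM in siNC and at 0.964, 1.09 and 0.513 FPKM in siYBX1, without overlap, while Myod1, Myh3 and Ckm were at or near 0. Neither of 2 tested macrophage genes (Cd68 and Cd14) and not the 1 tested endothelial gene (Egfl7) passed (limma; 1 and 0 with an unadjusted p below 0.05, 1 and 0 by voom). Cd68 was at 24.3, 10.8 and 12.8 FPKM in siNC and at 6.8, 9.47 and 11.1 FPKM in siYBX1, with overlapping groups. Its log2 fold change was -0.69 (adjusted p = 0.0681, limma). Cd14 was at 4.45 to 6.6 FPKM and Egfl7 at 16.1 to 21.7 FPKM over all libraries, while Ptprc, Adgre1, Pecam1 and Kdr were at or near 0. The part of these markers in the falls of Echs1, Crat and Pex11a was not tested.

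Ratios within a library remove only what all genes of that library share. The shift in siNC replicate 1 was not of that kind, with a median difference of 0.00823 over all genes tested, so a ratio can still carry it. The ratio of Crat to Cat was 0.345, 0.353 and 0.372 in siNC and 0.290, 0.305 and 0.263 in siYBX1. That of Pex11a to Pex19 was 0.304, 0.274 and 0.281 in siNC and 0.220, 0.237 and 0.232 in siYBX1. In both the groups did not overlap, as for Echs1 to Hadha and Cpt1a to Cpt1b. Of 9 such pairs computed, 7 did not overlap, and the share among other pairs of genes was not computed. Pairs such as Crat to Cat set a gene called lower beside an uncalled one, so the choice itself favoured a separation. All pairs were chosen after the values were seen, so they are given as a description with no test.

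**Figure D5:**
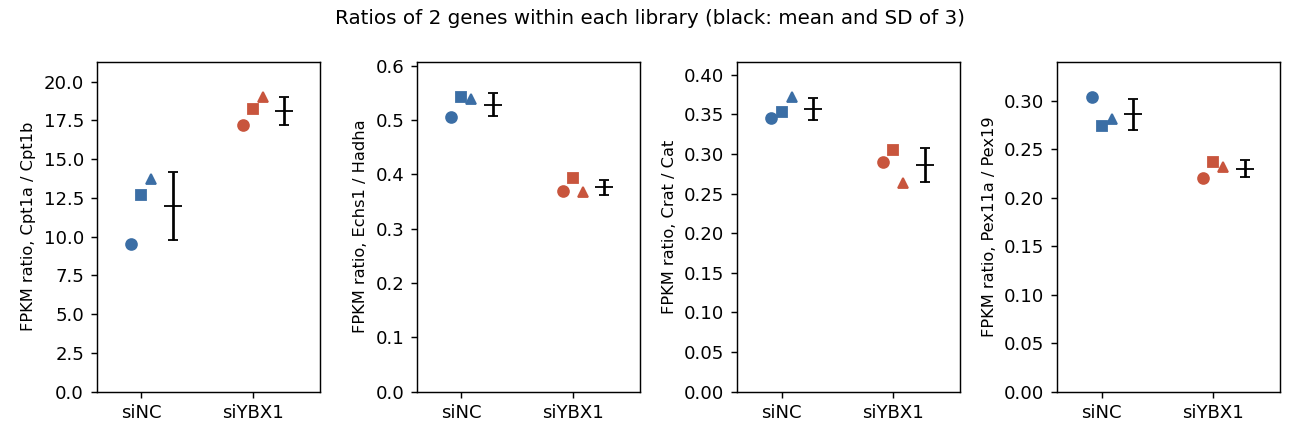
Ratio of the FPKM of 2 genes within each library, with siNC in blue and siYBX1 in red, symbols for the replicates as in the plot of the mitochondrial genes, and the mean and SD of 3 libraries in black. In each of the 4 panels the groups do not overlap, for example 0.505 to 0.542 in siNC and 0.368 to 0.393 in siYBX1 for Echs1 over Hadha.

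Other genes of the same pathways are given by count and by the genes called. Of 30 tested further genes of mitochondrial acyl-CoA metabolism 1 rose and 4 fell (16.7% called, median log2 fold change 0.0374). Acot9, another matrix thioesterase, rose from a mean of 55.9 ± 0.446 FPKM to 66.3 ± 4.15 FPKM (SD, n = 3 each), a call lost without siYBX1 replicate 2 (adjusted p = 0.0559, limma). Cpt1c, the brain-type isoform of the shuttle, fell from 12.1 ± 0.539 to 9.95 ± 0.459 FPKM, a call lost without siYBX1 replicate 1 (adjusted p = 0.0531). Pdk2, a pyruvate dehydrogenase kinase like Pdk4, fell from 19.4 ± 1.63 to 15.9 ± 0.191 FPKM, a call lost without the minimum on FPKM (adjusted p = 0.0515). Acad10, an acyl-CoA dehydrogenase family member, and Pccb, a subunit of propionyl-CoA carboxylase, had log2 fold changes of -0.27 and -0.20. The Pccb call held without 1 of the 6 libraries and was lost without each of the other 5, and the Acad10 call was lost without siNC replicate 2, siNC replicate 3 or siYBX1 replicate 1 and without the minimum. Adjusted p-values of these 5 genes were 0.0123 to 0.0236 (limma).

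Of 40 tested further peroxisome genes 3 rose and 3 fell (15.0% called, median log2 fold change -0.00918). Pxmp4, a peroxisomal membrane protein, fell from 65.1 ± 5.73 to 49.8 ± 2.24 FPKM (SD, n = 3 each, adjusted p = 0.00418, limma), and Decr2, the peroxisomal counterpart of Decr1, from 13.6 ± 0.281 to 10.7 ± 0.687 FPKM (adjusted p = 0.00503). Both calls held without each library in turn. Ephx2, the soluble epoxide hydrolase of cytosol and peroxisomes, fell with a log2 fold change of -0.29 (adjusted p = 0.0144), a call lost without siNC replicate 3, without siYBX1 replicate 2 and without the minimum. Slc25a17, a carrier for CoA and other cofactors in the peroxisome membrane, was at 82.9, 99.2 and 93.6 FPKM in siNC and rose to 115, 110.5 and 107 FPKM in siYBX1, a call lost without siYBX1 replicate 1, without siYBX1 replicate 2 and without the minimum. Prdx5, a peroxidase found in mitochondria, peroxisomes and cytosol, rose from a mean of 281 ± 2.78 FPKM to 329 ± 11.6 FPKM (SD, n = 3 each). Its call was lost with the length correction (adjusted p = 0.0607, limma), with quantile normalization (adjusted p = 0.193) and without siNC replicate 3 or siYBX1 replicate 1. Fis1, which takes part in the division of both organelles, had a log2 fold change of 0.24 (adjusted p = 0.0364) and lost its call without siNC replicate 1, siNC replicate 3, siYBX1 replicate 1 or siYBX1 replicate 2. That call was also lost with quantile normalization (adjusted p = 0.059), with the length correction (adjusted p = 0.0877) and without the minimum (adjusted p = 0.11), all by limma.

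PPAR receptors and their coactivators regulate many of these genes. Of 14 listed receptors and cofactors 11 were tested and none was called (limma; 0 higher and 2 lower with an unadjusted p below 0.05, 1 lower by voom). Pparg, the target of rosiglitazone, was at 80.1, 94.3 and 87.9 FPKM in siNC and at 95.2, 89.2 and 92.7 FPKM in siYBX1 (adjusted p = 0.389, limma). Ncor1, a corepressor of nuclear receptors, was at 32.5, 27.7 and 28.2 FPKM in siNC and at 26.7, 23.6 and 27.1 FPKM in siYBX1 (log2 fold change -0.18, adjusted p = 0.1). Ppara, the main regulator of oxidation genes in liver, lay at 0.0210 to 0.0345 FPKM on 7 to 12 reads per library. It was below the minimum, and by voom on these reads its log2 fold change was -0.24 with a 95% confidence interval of -1.09 to 0.62 (adjusted p = 0.719). Ppargc1a, a coactivator of mitochondrial biogenesis, was also below the minimum. Its level was 0.786, 0.662 and 0.739 FPKM in siNC and 0.580, 0.622 and 0.617 FPKM in siYBX1, without overlap. Without the minimum its log2 fold change was -0.11 with a 95% confidence interval of -0.19 to -0.02 (adjusted p = 0.126, limma). By voom it was -0.26 with an interval of -0.49 to -0.04 (adjusted p = 0.0948).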

How the data were processed

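RNA was sequenced from 3 siNC and 3 siYBX1 libraries, each made from 1.3 µg of total RNA according to the labels. Tools and build, per the submitters' processing notes, were HISAT2, HTSeq, fastp and GRCm39, with no role or version. The authors deposited 1 table of FPKM values for 16423 symbols. Gene lengths, strandedness and the counting of shared reads are not given in the sources used here.

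Library totals and whole reads were recovered from the FPKM steps (tolerance 0.02 reads, 100.000% of genes). The smallest fitting length is taken, so reads can come out too small. Groups were compared on log2(FPKM + 1) by limma 3.58.1 in R 4.3.3, with its variance trend and no covariates, over genes whose mean reached 1 FPKM. It was two-sided, with Benjamini-Hochberg adjustment over all 10341 genes tested, and was also run on simulated data. Those data held no shift shared by the genes of a library, unlike the variation seen in siNC replicate 1. No outcome is given here for changes as small as those called among the members. Fold changes on this scale understate those of low genes. Alternatives were a pseudocount of 0.1, no minimum, TPM, quantile normalization, a replicate block, a loess correction for gene length (span 0.3), voom on recovered reads (mean of at least 10 reads) and leaving out each library. The genes named are Ybx1, all 38 members, called genes of the other lists (the 2 most abundant where none was called), and Ppara, Pparg and Ppargc1a. Other genes named, Acaa1b and uncalled cell type markers, were chosen after their values were seen. Members and lists were chosen with earlier results of these data known. Scripts ran in Python 3.11.15.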

Additional observations from a re-analysis of the deposited data

How the results depend on the processing

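Among the 37 tested genes 23 kept their direction under all 13 alternatives, 9 were called at least once and 1 (Crat) was called in each. For calls among mitochondrial genes, the count higher (0) was 1 with the length correction, 1 with voom and 0 to 1 without each library. The count lower (1) was 0 without the minimum, 2 with the length correction and 1 to 2 without each library. For peroxisome genes the count higher (0) was 1 without the minimum and 1 with voom. The count lower (2) was 3 with quantile normalization, 1 with voom and 1 without each library. Calls among the other mitochondrial genes (5) were 2 to 6 without each library, 7 with TPM and 7 with voom. Among the other peroxisome genes (6) they were 3 without the minimum, 3 to 8 without each library and 9 with TPM (3 higher and 6 lower). Over all genes the 2132 calls were 1241 without the minimum and 1201 to 2026 without each library, the lowest without siYBX1 replicate 1. They were 2235 with TPM and 2463 with voom.

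Same-numbered libraries did not deviate together (correlations -0.306, -0.131 and -0.246) and none correlated best with its own number. The labels do not say if the numbers pair the libraries, and so few correlations cannot settle it. With the replicate block 1346 genes were called, and the peroxisome genes called lower were 1. It ended the calls of Pex11a (adjusted p = 0.118, limma), Pccb (0.0697), Prdx5 (0.0717) and Fis1 (0.068).

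Directions that changed all belong to uncalled genes. With TPM the log2 fold change was -0.05 for Acadvl, -0.03 for Acads, -0.02 for Acaa2, -0.01 for Hsd17b4, -0.03 for Eci2 and -0.0021 for Pex7. With quantile normalization it was -0.11 for Acadvl, -0.01 for Acads, -0.03 for Acaa2, -0.05 for Scp2 and -0.02 for Eci2, and with the length correction -0.002 for Acadvl, -0.0016 for Acads and -0.02 for Acaa2. Without each library it ran from -0.10 to 0.04 for Cpt2, -0.06 to 0.06 for Acadvl, -0.06 to 0.08 for Acads, -0.04 to 0.03 for Hadh, -0.08 to 0.10 for Acaa2, -0.05 to 0.15 for Decr1, -0.02 to 0.08 for Hsd17b4, -0.10 to 0.04 for Acaa1a, -0.01 to 0.12 for Scp2, -0.02 to 0.05 for Eci2, -0.12 to 0.08 for Pecr, -0.0049 to 0.09 for Pex7, -0.10 to 0.03 for Pex3 and -0.04 to 0.14 for Pex16. The cause was not tested. Depth limits Ehhadh (62 to 99 reads) and Cpt1b (133 to 234 reads).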
